A study of Mus musculus with 12 samples.

Results

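Immortalized mouse embryonic fibroblasts (MEFs) from male embryos of a Sirt3 knockout (KO) strain were compared with male wild-type (WT) MEFs across the whole polyadenylated transcriptome. The comparison rested on 6 of the 12 RNA libraries of the study, 3 labelled male KO and 3 labelled male WT, and on 12504 of the 34866 genes listed, namely those with a mean of at least 1 TPM (the usual unit of transcript abundance, already divided by transcript length) over all 12 libraries. The other 6 libraries were female WT and female KO MEFs. WT cells came from embryos of strain 129S1/SvImJ and KO cells from embryos of a Sirt3 KO strain whose background is not given in the sources used here. Embryos were taken at day 13, kept apart and sexed by PCR for Sry. All 4 groups carried a stably transfected SV40 T-antigen plasmid, were at passage 6 and were harvested 48 h after seeding. Wells were seeded in triplicate and the number of lines behind a group was not given, so p-values measure the spread between these cultures. WT and KO cells came from separate mouse stocks. However many lines there were, Sirt3 genotype and other differences between these stocks cannot be told apart. If a group was 1 line, the same holds for Sirt3 genotype and differences between lines.

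Sirt3 is an NAD-dependent deacetylase of the mitochondrial matrix, known for acting on metabolic and antioxidant enzymes after translation. Embryonic fibroblasts secrete collagen-rich matrix, and they keep traces of the body position they came from in their Hox and limb transcription factors. The SV40 T antigen binds p53 and the retinoblastoma proteins, so cycling is driven from outside the usual checkpoints in WT and KO alike.

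Sirt3 mRNA itself (ENSMUSG00000025486.17, chromosome 7 from 140863666 to 140882309 of GRCm38) stood at 6.58, 7.17 and 9.07 TPM in male WT libraries 1 to 3 and at 8.88, 10.9 and 11 TPM in male KO libraries 1 to 3. The values of the groups overlapped, and the difference of 0.39 on the log2(TPM + 1) scale (standard error 0.14, limma adjusted p = 0.0981) did not pass the threshold. It did pass when all 12 libraries shared one fit (limma adjusted p = 0.0403). The mean mRNA level was not lower in libraries labelled KO. A gene-level TPM does not tell an intact transcript from a disrupted one. Every mention of KO here refers to the label. Of the fibroblast markers checked, Vim, Col1a1, Fn1 and P4hb had means of 3109, 3184, 1265 and 584 TPM in male WT and of 3113, 4807, 1297 and 757 TPM in male KO. Over the 13 tested fibroblast markers 4 were called higher (Pdgfrb, Thy1, Col1a1 and P4hb) and 1 lower, S100a4, from 1164, 1165 and 1058 to 960.3, 967 and 953 TPM. The libraries resembled each other in makeup: their 10 most abundant genes held from 5.82% to 7.11% of the TPM, genes of mitochondrial DNA from 3.14% to 3.68%, and from 12256 to 12494 genes reached 1 TPM.

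Male KO MEFs differed from male WT MEFs by many small and a few very large amounts. By limma with Benjamini-Hochberg adjustment, 1343 genes (10.7% of those tested) were higher and 1364 (10.9%) lower in male KO at an adjusted p under 0.05, which together were 21.6%. Of these 2707 genes, 1610 differed by less than 1.5-fold. A difference of at least 2-fold was reached by 284 higher and 214 lower genes, 3.98% of those tested, one of at least 4-fold by 39 and 32, and one of at least 8-fold by 11 and 9. The median absolute difference over all tested genes was 0.17 on the log2 scale and the median signed difference -0.015, against a median residual SD of 0.12. The lower calls depended most on single libraries, with 896 without male WT replicate 2, 860 without male WT replicate 3 and 904 without male KO replicate 3. In 5001 genes (40.0% of those tested) the 3 KO values and the 3 WT values did not overlap, and this held for all called genes but Plagl1.

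**Figure D1:**
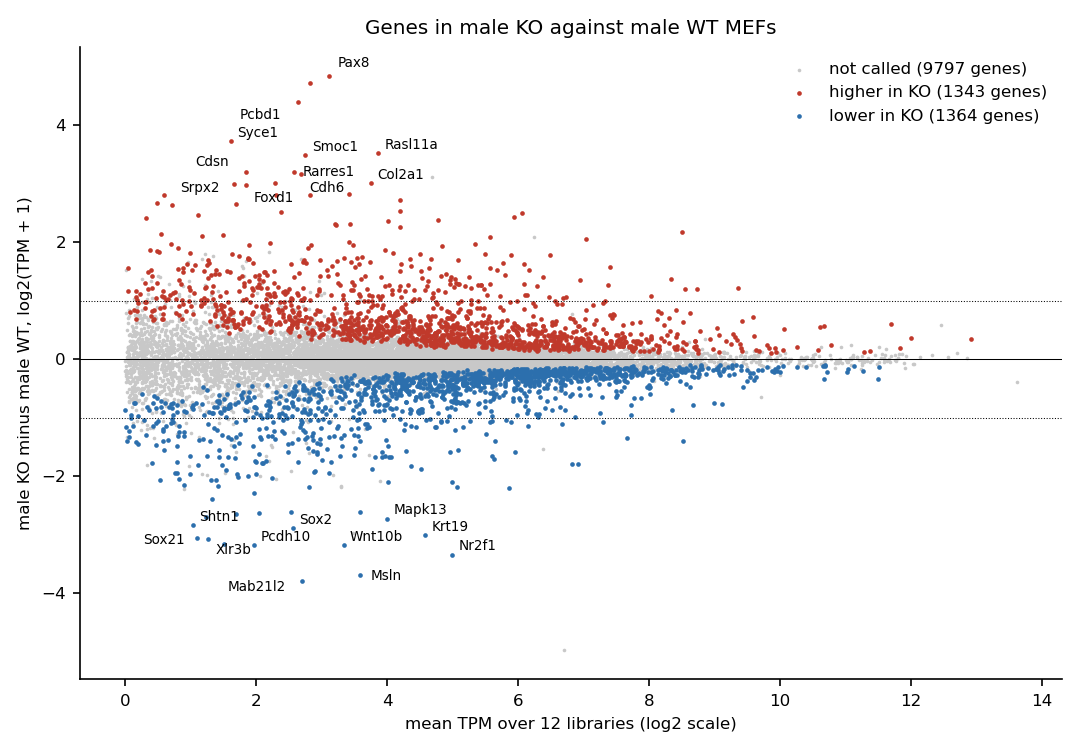
Each point is 1 of the 12504 genes tested, by its mean TPM over the 12 libraries (x axis, log2 scale) and the male KO minus male WT difference in log2(TPM + 1) (y axis); red genes were higher and blue genes lower in KO, grey genes were not called, and dotted lines mark 2-fold. The labels mark 11 of the 12 largest rises and the 12 largest falls except for a gene without a symbol, and Pax8 and Pcbd1 lie near the top.

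The largest rises named were those of Pax8 and Pcbd1. Pax8, a paired-box factor that specifies nephron and thyroid precursors (chromosome 2 from 24420560 to 24475599), was at 0.0452, 0.0955 and 0.578 TPM in the WT libraries and at 32.3, 32 and 37.8 TPM in the KO libraries, a log2 difference of 4.84 (standard error 0.18, adjusted p = 1.12e-05). No WT library reached 1 TPM. Pcbd1, which encodes a pterin dehydratase (chromosome 10 from 61089331 to 61094324), read 0.197, 0.206 and 0 TPM in WT and 24.2, 24.2 and 19.9 TPM in KO (log2 difference 4.39, standard error 0.14). Cdh6, a cadherin of early renal epithelium, gave 1.55, 1.39 and 1.83 TPM in WT against 20.2, 25.2 and 21.5 TPM in KO. Foxd1, a forkhead factor of kidney stroma and limb, had 0.778, 1.15 and 0.763 TPM in WT and 14.7, 13.1 and 14.7 TPM in KO. The rule that named these genes required groups without overlap. In female MEFs the means of Pax8, Pcbd1 and Cdh6 stayed at or below 1.08 TPM in both genotypes. Foxd1 rose in females too, from a mean of 1.32 to 3.11 TPM (log2 difference 0.83, limma adjusted p = 0.0284).

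The remaining 7 of the 11 largest rises named had no single function in common. Syce1, a protein of the meiotic synaptonemal complex, was listed at 0 in the 3 WT libraries and at 12.1, 13.3 and 11.3 TPM in the KO libraries. Its gene lies near Sirt3, on chromosome 7 from 140777229 to 140787852, and the part of this position in the rise was not tested. Rasl11a, a small GTPase of the Ras family, was at 2.77, 4.17 and 2.64 TPM in WT and 44.5, 45.5 and 49.8 TPM in KO. Smoc1, a basement membrane glycoprotein that antagonizes BMP signalling, rose from 0.649, 0.415 and 0.801 TPM to 15.2, 18.6 and 17.6 TPM, and Rarres1, a retinoid-induced gene, from 0.879, 1.13 and 0.746 TPM to 19, 13.3 and 17.7 TPM. In these 4 genes every KO library lay above every WT library, as the rule for naming them required. Col2a1, the collagen of cartilage, was 1.66 ± 0.0672 TPM (SD, n = 3) in WT and 20.4 ± 2.34 TPM (SD, n = 3) in KO. Cdsn, which encodes a corneodesmosome protein, was 0.47 ± 0.278 and 12.3 ± 0.643 TPM, and Srpx2, a secreted sushi-repeat protein, was 0.267 ± 0.0425 and 9.13 ± 1.18 TPM in the same order. Their log2 differences ran from 2.99 in Srpx2 to 3.72 in Syce1.

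The 2 largest falls were those of Mab21l2 and Msln. Mab21l2, needed for eye and body wall development (chromosome 3 from 86545581 to 86548629), dropped from 14.8, 16.5 and 16.2 TPM in the WT libraries to 0.233, 0.102 and 0.34 TPM in the KO libraries, a log2 difference of -3.79 (standard error 0.13, adjusted p = 8.55e-06). Msln, the surface protein mesothelin (chromosome 17 from 25748613 to 25754378), was at 25.4, 31.7 and 28.9 TPM in WT and 1.8, 1.03 and 1.07 TPM in KO (log2 difference -3.7, standard error 0.16). Krt19, a keratin of simple epithelia and mesothelium, had 67.2, 68.1 and 66.4 TPM in WT and 7.3, 8.17 and 6.94 TPM in KO, with an adjusted p of 3.02e-06. Nr2f1, an orphan nuclear receptor that patterns neural crest and brain, read 57.8, 76.3 and 64.9 TPM against 3.76, 7.8 and 5.87 TPM. In each of these 4 genes every WT library lay above every KO library, as the rule for naming them required. Sox2, a factor of neural and pluripotent cells, was at 12, 14.1 and 16.2 TPM in WT and 1.72, 0.265 and 1.43 TPM in KO, and its relative Sox21 at 6.63, 8.7 and 7.75 TPM and 0.0725, 0 and 0.0556 TPM. Wnt10b, a Wnt ligand, fell from 23.3 ± 4.0 to 1.69 ± 0.554 TPM (SD, n = 3 each), Mapk13, a p38 kinase, from 29.1 ± 2.11 to 3.57 ± 0.536 TPM, and Pcdh10, a protocadherin, from 10.7 ± 2.07 to 0.28 ± 0.17 TPM. Xlr3b, an X-linked gene of the Xlr family, and Shtn1, a protein of growing axons, averaged 8.15 and 6.59 TPM in WT and 0.0779 and 0.0636 TPM in KO. An unnamed gene, ENSMUSG00000115932.1, was at 3.74, 16.3 and 7.7 TPM in WT and listed at 0 in the 3 KO libraries. Adjusted p-values of the 23 genes named for the largest changes in both directions lay between 3.02e-06 and 0.00272.

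**Figure D2:**
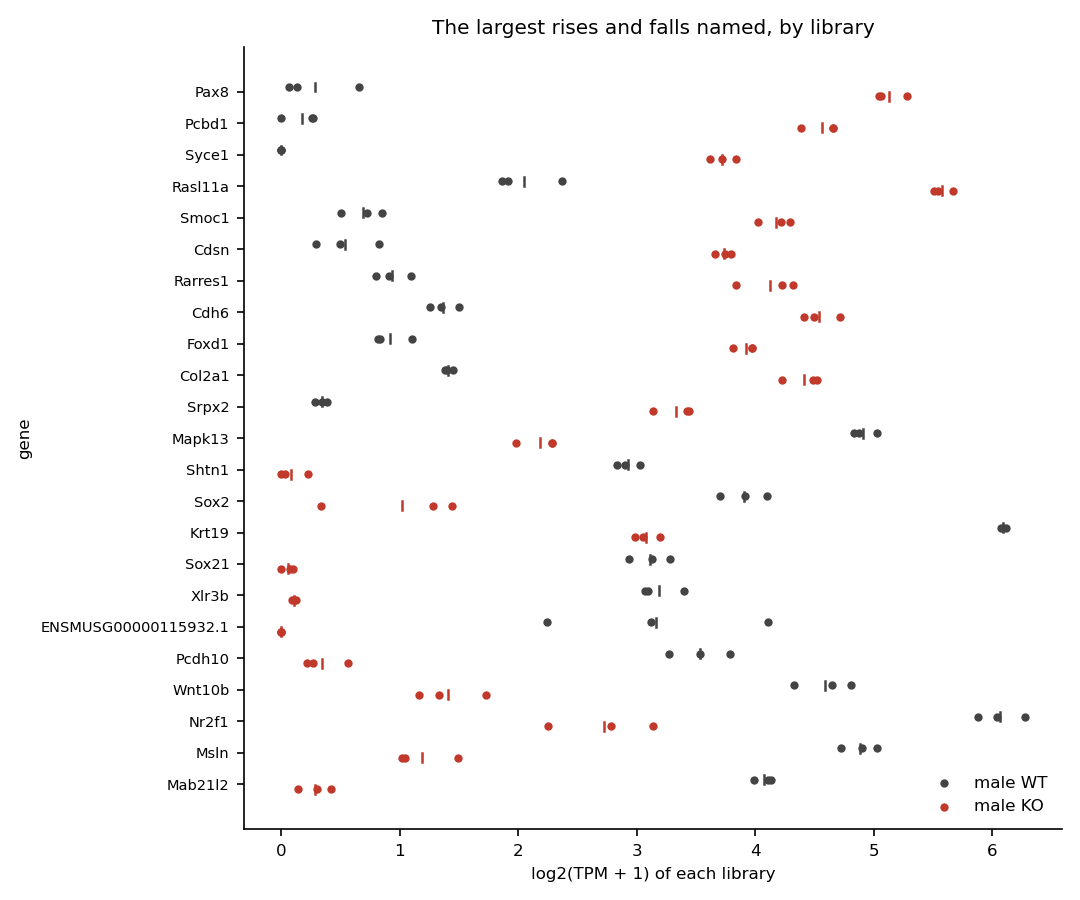
Each row is 1 of 11 called genes among the 12 with the largest rise or 1 of the 12 with the largest fall, ordered by difference; points are the single libraries in log2(TPM + 1) (x axis), grey for male WT and red for male KO, and short bars are means of 3 libraries. Genes were chosen for groups that do not overlap, and the widest spread within a group is that of ENSMUSG00000115932.1 in WT.

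Some genes passed from near absence to clear expression. A mean under 0.5 TPM in male WT and of at least 5 TPM in male KO was found for 10 genes by limits chosen after the values were seen. Beside Pax8, Pcbd1, Syce1, Cdsn and Srpx2 they included Agt, Enpep, Havcr1 and Gpbar1. Agt, the angiotensin precursor, averaged 5.54 TPM in KO, Enpep, the aminopeptidase that trims angiotensin, 5.79 TPM, and Havcr1, a surface receptor of injured kidney tubules, 5.97 TPM. The bile acid receptor Gpbar1 averaged 6.12 TPM. In the opposite direction 9 called genes went from at least 5 TPM to under 0.5 TPM: Mab21l2, Pcdh10, Xlr3b, Sox21, Shtn1, Itga2, Krt18, Gm49239 and the unnamed gene.

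Targets of the integrated stress response, the program in which the factor Atf4 switches on amino acid synthesis, transport and redox genes, rose together. Of 52 tested targets 42 were higher and none lower in male KO, with a median difference of 0.49 against -0.015 over all tested genes. Per library, the median over the list relative to the WT mean was -0.034, 0.026 and 0.012 in WT and 0.49, 0.53 and 0.51 in KO libraries. Atf4 mRNA rose from 211 ± 6.99 to 373 ± 11.2 TPM (SD, n = 3 each). Fgf21, a secreted stress hormone, was at 0.754, 0 and 0.144 TPM in WT and 4.91, 4.54 and 4.21 TPM in KO, with a log2 difference of 2.14 (standard error 0.24, adjusted p = 0.0011). The cytokine Gdf15 rose by 1.4 and Trib3, a pseudokinase that feeds back on Atf4, by 1.37 on the log2 scale. Enzymes of proline and mitochondrial folate metabolism followed, with 1.26 for Pycr1 and 1.2 for Aldh1l2. Among those past the test but small were Ddit3, which encodes CHOP, at 0.33 and the serine enzyme Psat1 at 0.28. Cdsn, described above, had been placed in the list as an Atf4 target, and its protein is better known from skin.

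The core C/EBP-ATF response element TGATGCAA, searched on both strands of RefSeq promoters (GRCm38.p6, 250 bases before to 50 bases after a start), was in 24.4% of the 41 list members with a promoter sequence, in 0.692% of the 9396 tested genes with one and in 1.03% of all 27025 genes with one. It was found in 7 of 33 called members and 3 of the 8 others. The promoters of the 2 called members with the largest rise that held it are shown, with the element in capitals, as examples of where it lies. Fgf21 lay at chr7:45615441-45615740 (minus strand) and Vldlr, a lipoprotein receptor, at chr19:27216770-27217069 (plus strand).
Fgf21: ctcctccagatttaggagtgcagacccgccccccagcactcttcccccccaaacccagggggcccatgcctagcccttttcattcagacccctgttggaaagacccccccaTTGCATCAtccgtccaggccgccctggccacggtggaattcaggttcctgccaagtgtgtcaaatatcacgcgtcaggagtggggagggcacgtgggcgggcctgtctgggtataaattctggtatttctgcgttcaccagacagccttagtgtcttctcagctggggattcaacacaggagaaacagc
Vldlr: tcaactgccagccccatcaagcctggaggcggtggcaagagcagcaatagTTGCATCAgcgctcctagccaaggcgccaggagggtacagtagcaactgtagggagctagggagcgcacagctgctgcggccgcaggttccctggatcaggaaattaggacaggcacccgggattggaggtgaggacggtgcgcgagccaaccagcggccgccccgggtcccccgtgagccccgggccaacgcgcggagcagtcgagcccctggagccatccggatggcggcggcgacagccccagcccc
In both windows the element reads on the reverse strand. Vldlr rose from 7.59, 6.59 and 5.43 TPM in WT to 19.4, 19.1 and 20.4 TPM in KO.

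Genes of endoplasmic reticulum (ER) folding and degradation moved in the same direction by smaller amounts. Of 59 tested, 24 were higher and none lower (median 0.15). Herpud1, a scaffold of ER-associated degradation, was at 31.7, 33.6 and 28.8 TPM in WT and 60.1, 57.8 and 56.2 TPM in KO (log2 difference 0.87, standard error 0.07). Edem1, which directs misfolded glycoproteins to degradation, rose by 0.80, the transcription factor Xbp1 by 0.45 and the disulfide isomerase Pdia4 by 0.29. The main ER chaperone Hspa5 was at 875 ± 41 TPM in WT and 937 ± 11.3 TPM in KO and did not pass (adjusted p = 0.115). The ER stress element, CCAAT and CCACG with 9 bases between, was in 9 of the 50 members with a promoter sequence, in 0.181% of tested genes and in 37 of all 27025 genes, with 3 of 19 called and 6 of 31 other members holding it. The 2 called members with the largest rise that held it were Syvn1, a ubiquitin ligase of the ER membrane at chr19:6046326-6046625 (plus strand), and Calr, the chaperone calreticulin at chr8:84846882-84847181 (minus strand), shown with the element in capitals.
Syvn1: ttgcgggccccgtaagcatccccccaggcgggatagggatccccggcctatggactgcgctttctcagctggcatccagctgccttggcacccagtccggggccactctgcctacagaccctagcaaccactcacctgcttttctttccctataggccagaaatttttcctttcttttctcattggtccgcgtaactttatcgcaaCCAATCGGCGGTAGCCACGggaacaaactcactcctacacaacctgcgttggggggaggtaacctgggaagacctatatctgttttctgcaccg
Calr: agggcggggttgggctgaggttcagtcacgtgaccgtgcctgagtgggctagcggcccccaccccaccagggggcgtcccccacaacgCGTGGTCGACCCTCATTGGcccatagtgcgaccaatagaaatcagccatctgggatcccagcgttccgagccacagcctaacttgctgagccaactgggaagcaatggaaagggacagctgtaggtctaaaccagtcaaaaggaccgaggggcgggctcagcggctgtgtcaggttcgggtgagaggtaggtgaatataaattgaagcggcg
The Syvn1 promoter has the forward and the Calr promoter the reverse form. Syvn1 averaged 31.9 TPM in WT and 40.8 TPM in KO, and Calr 1056 and 1176 TPM.

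Hypoxia-inducible factor (HIF) targets were more often higher than lower, with 13 of 42 higher and 3 lower and a median of 0.078. These were 31.0% and 7.14% of the list, against 10.7% and 10.9% of all genes. Among HIF targets the lower count was 1 without male WT replicate 2 or 3. Pdk1, the kinase that blocks pyruvate dehydrogenase, rose from 3.53, 3.85 and 3.26 to 10.2, 9.95 and 8.74 TPM and the collagen prolyl hydroxylase P4ha2 by 0.96 on the log2 scale. Car12, a carbonic anhydrase, fell by 0.95. Classical targets with no call included Vegfa (0.28) and Slc2a1 (0.013). The HIF core ACGTG occurred in 22 of 31 members with a promoter sequence, 6 of 8 called and 16 of 23 others, against 29.6% of tested genes and 21.8% of all genes. It is shown in capitals in P4ha2 at chr11:54100674-54100973 (plus strand) and in Egln3, a prolyl hydroxylase that marks HIF for degradation, at chr12:54203825-54204124 (minus strand).
P4ha2: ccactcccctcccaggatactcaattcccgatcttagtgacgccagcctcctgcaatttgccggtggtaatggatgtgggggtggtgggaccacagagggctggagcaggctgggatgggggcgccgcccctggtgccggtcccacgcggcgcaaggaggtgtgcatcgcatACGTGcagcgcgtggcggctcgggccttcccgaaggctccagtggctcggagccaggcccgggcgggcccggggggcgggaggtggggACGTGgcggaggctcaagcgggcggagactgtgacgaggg
Egln3: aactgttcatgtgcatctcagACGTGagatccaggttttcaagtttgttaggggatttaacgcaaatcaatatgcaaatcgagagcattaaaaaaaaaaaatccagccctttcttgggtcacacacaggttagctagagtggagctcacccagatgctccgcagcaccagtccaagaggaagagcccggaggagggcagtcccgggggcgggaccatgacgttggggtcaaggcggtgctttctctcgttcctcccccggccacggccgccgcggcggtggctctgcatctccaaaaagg
Egln3 rose from 0.994, 1.6 and 1.4 TPM in WT to 2.57, 3.17 and 3.49 TPM in KO.

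Interferon-stimulated genes, the antiviral set switched on by interferon receptors, had the lowest median of the 61 function lists. Of 43 tested, 32 were lower and 1 higher in male KO, with a median of -0.79. The list median was -0.89, -0.84 and -0.73 relative to the WT mean in the 3 KO libraries. Usp18, the protease that removes ISG15 from proteins, was at 44.2, 43.2 and 45.9 TPM in WT and 10.6, 11.6 and 12 TPM in KO (log2 difference -1.88, standard error 0.072, adjusted p = 1.16e-05). Isg15, the ubiquitin-like modifier, fell from 234, 250.1 and 215 TPM to 68, 66.6 and 65.6 TPM and Bst2, the viral tether, from 625, 637 and 608 TPM to 229, 224 and 250.4 TPM. The RNA sensors Ifih1 and Ddx58 had differences of -1.36 and -0.98, the inducing factors Irf7 and Irf9 of -1.67 and -0.72. Only Ifitm2 (chromosome 7 from 140954837 to 140955987, near Sirt3) was called higher, at 0.21. Its call was lost without male WT replicate 2 or 3 or male KO replicate 1 or 3 (log2 difference 0.17 to 0.22). Irf1 (-0.16) and Stat2 (-0.12) did not pass.

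The interferon-stimulated response element, searched here as GAAA, any 2 bases and GAAA on either strand, was added after the fall of the list had been seen. It was in 17 of 33 members with a promoter sequence, in 3.555% of tested genes and in 3.99% of all genes, with 14 of 26 called and 3 of 7 other members holding it. The promoters of Isg15 at chr4:156200769-156201068 (minus strand) and Oas1a, an RNA-activated antiviral enzyme, at chr5:120907476-120907775 (minus strand) had the largest falls among called holders, and overlapping matches run together in the capitals.
Isg15: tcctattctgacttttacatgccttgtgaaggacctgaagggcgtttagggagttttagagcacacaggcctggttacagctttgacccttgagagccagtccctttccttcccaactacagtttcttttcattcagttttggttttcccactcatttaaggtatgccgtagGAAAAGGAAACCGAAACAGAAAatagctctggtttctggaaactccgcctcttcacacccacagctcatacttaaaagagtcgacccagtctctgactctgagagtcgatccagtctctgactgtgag
Oas1a: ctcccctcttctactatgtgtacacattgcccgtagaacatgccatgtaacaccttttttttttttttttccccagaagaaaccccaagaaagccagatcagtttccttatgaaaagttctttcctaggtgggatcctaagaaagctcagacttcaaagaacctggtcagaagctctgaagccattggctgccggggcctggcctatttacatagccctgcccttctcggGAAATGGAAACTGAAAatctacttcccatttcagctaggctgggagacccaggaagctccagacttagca
Oas1a was 29 ± 0.655 TPM in WT and 8.54 ± 0.849 TPM in KO (SD, n = 3 each).

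Antigen presentation genes, many of which respond to interferon, had 10 of 22 lower and 1 higher (median -0.27). H2-Q6, a nonclassical class I gene with close paralogs that can share reads, went from 11.7, 10.8 and 12.7 to 2.46, 3.52 and 2.32 TPM. The class I light chain B2m fell from 1129 ± 45.8 to 963 ± 19.9 TPM. Tap2, a chain of the peptide transporter, was called higher at 0.72. Among antigen presentation genes the higher count was 0 without male WT replicate 2 or male KO replicate 1 or 3.

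Chemokines and cytokines, by contrast, had 17 of 36 higher and 2 lower (median 0.35). Ccl20, which attracts lymphocytes through CCR6, was at 1.59, 1.63 and 1.76 TPM in WT and 13.8, 14 and 14.6 TPM in KO (log2 difference 2.51, standard error 0.10). The neutrophil attractant Cxcl1 rose from 9.54, 10.8 and 10.5 to 53.6, 55.9 and 49.99 TPM and Cxcl14 from 8.82, 9.25 and 9.81 to 53.5, 52.1 and 51.2 TPM. The receptor subunit Il6st rose by 1.4 and the cytokine Il11 by 1.09. The falls were Cxcl10 (-0.79) and Ccl5 (-0.60), both known as interferon-induced. Complement and acute phase genes had 5 of 13 higher and none lower, led by C4b from 1.26 to 5.9 TPM and by the pentraxin Ptx3 at 1.62 on the log2 scale.

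**Figure D3:**
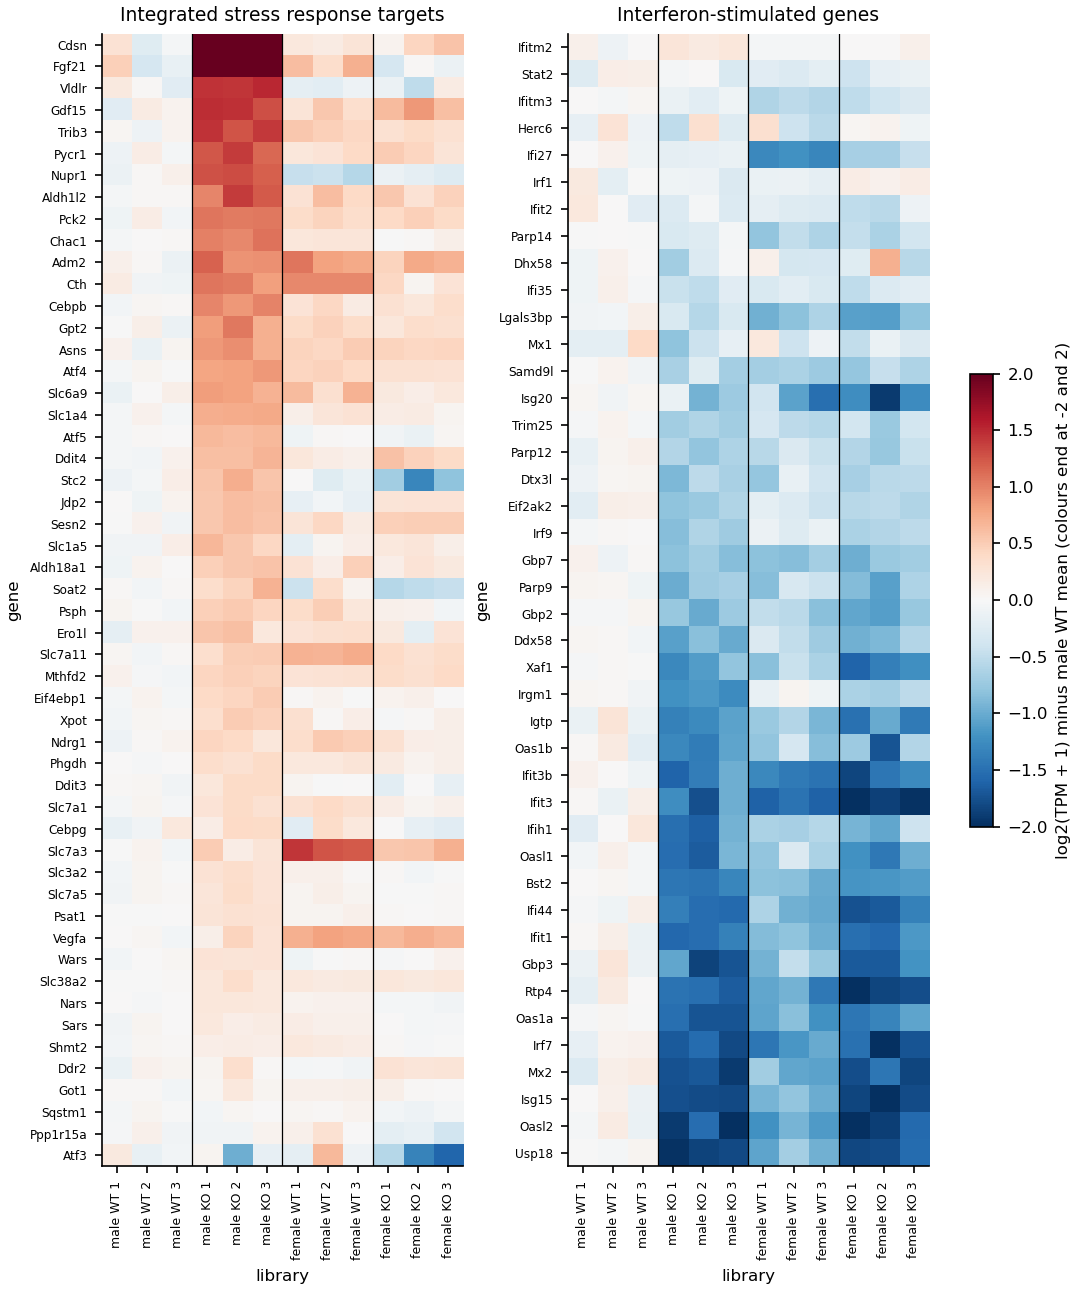
Rows are the 52 tested integrated stress response targets (left) and 42 of the 43 tested interferon-stimulated genes (right), ordered by male difference; columns are the 12 libraries, and colour is log2(TPM + 1) minus the mean of male WT, red above and blue below, ending at -2 and 2. The male KO columns are red for most of the left panel and blue for most of the right, and the female columns of both genotypes lie below male WT for most interferon-stimulated genes.

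Genes of the extracellular matrix, the main product of fibroblasts, were more often higher than lower in male KO. Fibrillar collagens had 6 of 10 chains higher and 1 lower (median 0.47), and Col27a1, the lower one, lost its call on leaving out any 1 of the KO libraries. Col1a1, the major chain, rose from 2937, 3348 and 3268 TPM to 4627, 5047 and 4745 TPM, while Col1a2 was at 1303 ± 66.7 and 1284 ± 26 TPM and did not pass. Other collagens had 9 of 18 higher and 3 lower. Col15a1, a basement membrane zone collagen, was at 3.2, 2.79 and 3.65 TPM in WT and 19.8, 19.1 and 20.6 TPM in KO (log2 difference 2.31, standard error 0.11). The 3 chains of collagen VI rose together, Col6a1 from 304 to 694 TPM, Col6a2 from 224 to 470 TPM and Col6a3 from 98.8 to 296 TPM. Col8a1, Col26a1 and Col7a1 fell, with differences of -1.04, -0.99 and -0.83.

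Proteoglycans had 13 of 19 members higher and 1 lower (median 0.48). Fmod, fibromodulin, which spaces collagen fibrils, was at 3.56, 3.34 and 3.05 TPM in WT and 18.8, 20.9 and 21.7 TPM in KO, and Acan, the cartilage aggrecan, rose by 1.52. Elastic fibre genes had 11 of 19 higher and 2 lower, with Emilin1 at 35.9, 43.3 and 32.4 TPM in WT and 121, 121 and 111 TPM in KO and elastin itself, Eln, up by 1.04. Matricellular proteins had 13 of 22 higher and 4 lower. Postn, periostin, rose from 124, 122 and 122 TPM to 536, 575 and 554 TPM, Tgfbi from 29.1, 33.8 and 28.4 TPM to 159, 179 and 167 TPM, and Mgp, the calcification inhibitor, fell with a log2 difference of -1.65.

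Basement membrane glycoproteins went the other way, with 8 of 18 lower and 2 higher (median -0.18). The laminin chains Lama5 and Lama2 had differences of -1.22 and -0.70, the nidogens Nid1 and Nid2 of -0.65 and -0.78 and agrin, Agrn, of -0.87. The exceptions were Smoc1, above, and the laminin chain Lama4 at 1.59.

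Genes of matrix turnover were also more often higher than lower. Mmp2, gelatinase A, was at 25.6, 25.4 and 25.9 TPM in WT and 144, 151 and 151 TPM in KO (log2 difference 2.49, standard error 0.045, adjusted p = 1.01e-06), and Mmp9, gelatinase B, fell from 3.88, 2.94 and 3.13 to 0.705, 0.407 and 0.527 TPM. In all, 13 of 35 proteases were higher and 3 lower. Among matrix proteases the higher count was 8 without male WT replicate 3 or male KO replicate 2 or 3. Inhibitors and collagen-crosslinking enzymes had 19 of 27 higher and 5 lower (median 0.39). Timp3, a matrix-bound metalloprotease inhibitor, was at 64, 60.1 and 63.9 TPM in WT and 248, 276 and 266 TPM in KO, Serpine2 rose by 1.71 and lysyl oxidase, Lox, by 0.65. Among inhibitors the lower count was 3 without male WT replicate 2 or 3.

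Adhesion genes changed in both directions. Integrins had 3 of 16 higher and 4 lower, the falls being the laminin and collagen receptors Itga2, Itga3 and Itga6 and the subunit Itgb3. Itga2 was at 5.27, 4.85 and 5.51 TPM in WT and 0.125, 0.173 and 0.258 TPM in KO. Cadherins outside the protocadherin clusters had 4 of 18 higher and 6 lower, with Cdh6 and Celsr2 (1.95) at the top and Pcdh10 and Cdh18 (-1.45) at the bottom. Contractile and serum response factor genes had 5 of 31 higher and 7 lower, and Acta2, the myofibroblast actin, was at 1667 ± 16.4 TPM in WT and 1665 ± 29.7 TPM in KO (SD, n = 3 each), with no call. Acta1, skeletal actin, fell from 10.3 to 5.07 TPM and the Yap target Amotl2 rose from 178 to 273 TPM. Among contractile genes the lower count was 4 without male WT replicate 2 or male KO replicate 1 or 3.

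Signalling families had calls in both directions. TGF-beta and BMP genes had 12 of 47 higher and 7 lower. The ligand Bmp2 was at 3.12, 3.47 and 2.98 TPM in WT and 0.285, 0.288 and 0.299 TPM in KO, while Bmp4 rose by 0.92 and the BMP antagonist Nog had a difference of -1.25. Eng, the co-receptor endoglin, rose from 1.77, 1.16 and 0.846 to 5.93, 5.49 and 7.23 TPM. Wnt genes split evenly, 12 higher and 12 lower of 46. The secreted Wnt modulators Dkk3, Sfrp1 and Sfrp2 rose, Dkk3 from 5.59, 6.21 and 5.88 to 34.1, 33.3 and 35.9 TPM, whereas the ligand Wnt10b and the enhancer Rspo3 (-1.62) fell. Notch and Hedgehog genes had 7 of 27 higher, led by the Hedgehog co-receptor Gas1 (89.5 to 174 TPM), and 3 lower. Axon guidance genes had 12 of 51 higher and 8 lower, with Robo2, a Slit receptor, from 0.812 to 6.82 TPM and Unc5c, a netrin receptor, from 14.3 to 4.98 TPM. Among guidance genes the higher count was from 6 to 7 without male WT replicate 3 or male KO replicate 2 or 3 and the lower count 5 without male WT replicate 3.

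Growth factor genes were similarly divided. Receptor tyrosine kinase ligands and receptors had 11 of 50 higher and 13 lower, the latter 8 without male WT replicate 3. Fgf5 fell from 6.51, 10.2 and 8.91 TPM to 1.28, 0.428 and 1.21 TPM, Fgf2 by 1.04 on the log2 scale, and the EGF receptor ligands Areg and Ereg had differences of -1.1 and -0.77. The receptors Egfr (0.99) and Pdgfrb (1.06) and the ligand Hgf (1.08) rose. In the insulin-like growth factor system 4 of 17 genes were higher and 5 lower, and Igfbp3, a binding protein, was at 37.8, 39.7 and 37.9 TPM in WT and 8.55, 9.14 and 7.0 TPM in KO. Immediate early genes and MAP kinase feedback genes had 10 of 42 higher and 10 lower. The phosphatase Dusp1 rose (25.5 to 60.5 TPM on average) and Etv4, a factor induced by ERK signalling, fell (58.6 to 31.5 TPM), as did Etv5, Spry2 and Dusp5. Among these feedback genes the higher count was from 4 to 6 without male WT replicate 1, 2 or 3 or male KO replicate 3.

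Retinoid genes had 7 of 19 higher and 6 lower, the higher count being 4 without male KO replicate 3. The retinaldehyde reductase Dhrs3 rose from 3.64, 4.33 and 4.13 to 37.4, 33.9 and 32.3 TPM and the binding protein Crabp2 fell from 122, 128 and 122 to 26.8, 25.2 and 26.6 TPM. The receptor Rarb fell by 2.0 on the log2 scale. Prostaglandin and sphingosine genes had 4 of 24 higher, led by the lipid phosphatase Plpp3 (20.3 to 55 TPM), and 5 lower, with Ptgs2, which encodes cyclooxygenase-2, at -0.99.

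Positional transcription factors differed between the male cultures. Hox genes had 10 of 32 higher and 3 lower (median 0.20). Hoxa4, an anterior gene of its cluster, was at 1.01, 0.986 and 1.49 TPM in WT and 4.2, 6.0 and 4.39 TPM in KO, and Hoxd13, the most distal gene of its cluster and a marker of distal limb and tail, was at 135, 139 and 139 TPM and 72.8, 72.7 and 71.8 TPM. The other falls were Hoxb8 (-0.59) and Hoxb9 (-0.83). Limb and trunk factors had 16 of 39 higher and 8 lower. Tbx5, of the forelimb, rose by 0.56, and Pitx1, of the hindlimb, was at 3.18, 3.76 and 3.75 TPM in WT and 0, 0.0543 and 0 TPM in KO. Tbx3 rose from 2.02, 2.29 and 4.47 to 15.3, 11.4 and 8.89 TPM, Shox2 by 1.71, and Hand2 and Msx1 had differences of -1.95 and -1.36.

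Forkhead, Gata, sine oculis, Eya, Pax and Sall factors had 10 of 36 higher and 6 lower. Next to Pax8 and Foxd1, the kidney factors Sall1 and Wt1 rose by 1.83 and 1.25 while Eya1, which acts early in the same organ, had a difference of -1.57. Sox and Klf factors had 4 of 17 higher and 5 lower, and the chondrogenic Sox5 and Sox9 rose by 1.77 and 0.70. Among Sox and Klf factors the higher count was 2 without male WT replicate 3 or male KO replicate 1 or 3 and the lower count 3 without male WT replicate 2 or male KO replicate 1 or 3. Clustered protocadherins, whose promoters are chosen clone by clone, had 8 of 18 higher and 3 lower, with Pcdhga7 at 0.253, 0.135 and 0.0806 TPM in WT and 3.1, 4.14 and 3.36 TPM in KO and Pcdhga12 at a difference of -1.67. At a mean of at least 5 TPM none of them was called higher and the list median was -0.32 instead of 0.43. They share constant exons, so reads can be split between members. Imprinted genes had 2 of 24 higher and 4 lower, together a share near the 21.6% of all genes. Their falls were Zdbf2 (1.69 to 0.212 TPM), Cdkn1c, Dlk1 and Igf2. Among imprinted genes the higher count was 1 without male WT replicate 1 or 3 or male KO replicate 2 or 3.

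Cell cycle genes had small differences. Mitosis genes had none of 48 higher and 14 lower (median -0.14). Ect2, which starts cytokinesis, was at 85.4, 81.3 and 87.7 TPM in WT and 59, 48.1 and 56.9 TPM in KO, Ccnb1 had a difference of -0.29 and Plk1 of -0.28. DNA replication genes had 4 of 54 higher and 1 lower (9.26% called, below the 21.6% of all genes). Dut, which clears dUTP, rose from 183 to 238 TPM. Tk1, the lower one, had a difference of -0.13, and its call was lost on leaving out any 1 of the 6 libraries. Among replication genes the higher count was from 1 to 2 without male WT replicate 3 or male KO replicate 3. Targets of p53 and cell cycle inhibitors had 6 of 37 higher and 4 lower (27.0% called), with the death receptor Fas (1.91 to 5.16 TPM) and Perp (3.96 to 0.548 TPM) at the ends. Nucleotide synthesis genes had 4 of 38 higher and 5 lower (23.7% called, near the 21.6% of all genes), and AMP deaminase Ampd3 stood far from the others, at 1.25, 1.43 and 1.56 TPM in WT and 14.6, 15.8 and 17.1 TPM in KO. Adss, adenylosuccinate synthase, fell from 111 to 93 TPM. Among nucleotide genes the higher count was 2 without male WT replicate 2 or 3 or male KO replicate 1 or 3 and the lower count from 2 to 3 without male WT replicate 2 or male KO replicate 1 or 3.

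Genes of translation showed small shifts. Cytosolic ribosomal proteins had 1 of 87 higher and 11 lower, shares near or below the 10.7% and 10.9% of all genes, and the lower count was from 2 to 7 without male WT replicate 1, 2 or 3 or male KO replicate 1, 2 or 3. Rps4x rose from 1454, 1435 and 1444 to 1636, 1584 and 1576 TPM, and Rps3a1 had a difference of -0.40, a call lost without male WT replicate 1 or 2 or male KO replicate 1, 2 or 3 (log2 difference -0.44 to -0.29). Ribosomal protein genes have many processed pseudogenes that can take their reads. Mitochondrial ribosomal proteins had 3 of 77 higher and 12 lower, in all 19.5% called against 21.6% of all genes. Their lower count was from 3 to 7 without male WT replicate 1, 2 or 3 or male KO replicate 2 or 3. Mrpl23 fell from 21.6, 31.8 and 30.6 to 12.3, 14.1 and 15.8 TPM, and Mrpl14 was called higher at 0.26 but not without male WT replicate 2 or 3 or male KO replicate 1 or 3 (log2 difference 0.21 to 0.25). Aminoacyl-tRNA synthetases and their partners had 7 of 41 higher (Gars, Lars, Eprs, Aars, Wars, Nars and Sars) and 1 lower, in all 19.5% against 21.6% of all genes. Gars was at 225, 232 and 228 TPM in WT and 304, 297 and 295 TPM in KO. Eef1e1, the lower one, had a difference of -0.49 and lost its call without male WT replicate 2 or 3 or male KO replicate 1 or 3 (log2 difference -0.50 to -0.39). The higher count was 2 without male WT replicate 1 or 2 among cytosolic and from 0 to 1 without male WT replicate 2 or 3 or male KO replicate 1 or 3 among mitochondrial ribosomal proteins.

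Genes of protein quality control were called in both directions. Cytosolic heat shock genes had 5 of 42 higher, all small heat shock proteins or Bag co-chaperones, and 11 lower, which included Hsp90aa1 (-0.31), Hsp90ab1 (-0.17) and 4 subunits of the CCT chaperonin. Hspb1 was at 53.4, 50.9 and 53.3 TPM in WT and 109.5, 111 and 105 TPM in KO and Hspa1b at 36.6, 40.03 and 37.7 TPM and 23.1, 24.5 and 24.1 TPM. Among heat shock genes the higher count was 3 without male WT replicate 3. Proteasome subunits had 1 of 39 higher and 3 lower (10.3% called against 21.6% of all genes), Psma7 at 0.17 and Psmb5 at -0.28, and these calls were lost without male WT replicate 3 or male KO replicate 1 or 3 (log2 difference 0.14 to 0.18) and without male WT replicate 1 or 2 or male KO replicate 1, 2 or 3 (log2 difference -0.29 to -0.21) respectively. Lysosomal genes had 12 of 55 higher, including the factor Mitf (0.77) and the cathepsin Ctsh (0.354 to 1.8 TPM), and 2 lower (25.5% called). Ctsc, called at -0.34, was not called without male WT replicate 1 or 2 or male KO replicate 1 or 3 (log2 difference -0.36 to -0.29). Autophagy genes had 7 of 43 higher and 3 lower (23.3% called, near the share of all genes), with Epg5, needed for autophagosome fusion, from 19.4 to 8.98 TPM and Wipi1 from 19.6 to 31.7 TPM. The lower count was 1 without male WT replicate 1 or 2 or male KO replicate 2 or 3 among autophagy genes, from 0 to 1 without male WT replicate 1, 2 or 3 or male KO replicate 1 or 3 among lysosomal genes and 1 without male WT replicate 2 or male KO replicate 1 or 3 among proteasome subunits, whose higher count was from 0 to 2 without male WT replicate 2 or 3 or male KO replicate 1 or 3.

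The respiratory chain, in the organelle where the Sirt3 protein acts, gave few calls. Nuclear-encoded respiratory chain subunits had 4 of 82 higher and 2 lower, a share below the 21.6% of all genes, and a median of 0.029. Ndufs8 of complex I had a difference of 0.24, not called without male WT replicate 2 or 3 or male KO replicate 2 or 3 (log2 difference 0.20 to 0.23), and Uqcr11 of complex III one of -0.17. Of the 13 genes of mitochondrial DNA 15.4% were called, against 21.6% of all genes. These were mt-Co3, higher (0.37), and mt-Atp8, lower (-0.47). The call of mt-Atp8 was lost without male WT replicate 1 or male KO replicate 2 or 3 (log2 difference -0.50 to -0.43). Mitochondrial chaperones, proteases and import genes had 2 of 46 higher and 12 lower (median -0.11). Pam16, of the import motor, fell from 122, 134 and 106 to 83, 82.2 and 74.2 TPM, the chaperonins Hspd1 and Hspe1 by 0.16 and 0.27 on the log2 scale, while the protease Lonp1 rose from 116, 123 and 118 to 143, 148 and 148 TPM. Among import genes the lower count was from 5 to 6 without male WT replicate 3 or male KO replicate 2 or 3. Sirtuins and NAD synthesis genes had none of 20 higher and 2 lower, Sirt1 (21.7 to 15.5 TPM) and Nampt (-0.47). Their share called was below the 21.6% of all genes, and their share lower was near the 10.9% of all genes. Mitochondrial solute carriers had 3 of 38 higher and 3 lower (15.8% called, also below the share of all genes). Slc25a39 rose from 149 to 203 TPM and Slc25a13, the aspartate-glutamate carrier, fell from 21.5 to 15.2 TPM. Respiratory chain counts were for higher genes 2 without male KO replicate 1 or 2 and for lower genes 1 without male WT replicate 1 or male KO replicate 1, 2 or 3. The call of mt-Co3 was lost without male WT replicate 1 or 2 or male KO replicate 1 or 2. The higher count of import genes was 1 without male WT replicate 1 or 3 or male KO replicate 1 or 3. For sirtuins and NAD synthesis genes the higher count was 1 without male KO replicate 2 and the lower count 1 without male WT replicate 2 or male KO replicate 1.

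Carbon metabolism had a few large single-gene differences. Ldhb, a lactate dehydrogenase subunit, was at 25.8, 25.3 and 22.2 TPM in WT and 109.5, 107 and 106 TPM in KO (log2 difference 2.09, standard error 0.067, adjusted p = 7.67e-06). Slc16a3, the lactate exporter MCT4, was at 14, 10.01 and 13.7 TPM in WT and 48.5, 46.2 and 43.2 TPM in KO. The importer Slc16a1 had a difference of -0.75, and Slc2a3, a glucose transporter, fell from 5.18 to 2.6 TPM. Glycolysis and pentose phosphate genes had 9 of 41 higher and 6 lower (median 0.017), and the higher count was 4 without male WT replicate 1 or 3 or male KO replicate 3. TCA cycle, pyruvate and glutamine genes had 7 of 45 higher and 4 lower (24.4% called, near the 21.6% of all genes). Pck2 and Gpt2, which are also in the stress response list, rose by 1.05 and 0.87. Pdhx, a subunit of pyruvate dehydrogenase, was called at -0.31, a call lost on leaving out any 1 library. Among these TCA genes the lower count was 2 without male WT replicate 1, 2 or 3 or male KO replicate 1 or 3.

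Lipid genes were called in both directions. Cholesterol synthesis and uptake genes had 13 of 34 higher and none lower (median 0.21), and the count was 8 without male WT replicate 1. Srebf2, the master factor, rose from 78.4, 86 and 83.6 TPM in WT to 105, 112 and 109.7 TPM in KO, a log2 difference of 0.40, and the enzymes Hmgcs1, Sqle and Idi1 rose by 0.37, 0.33 and 0.38. Fatty acid oxidation genes had 6 of 41 higher and 2 lower (19.5% called, near the 21.6% of all genes), led by Acot2, a mitochondrial thioesterase (5.42 to 19.4 TPM), with Acot7 as the largest fall (164 to 133 TPM). Fatty acid and glycerolipid synthesis genes had 9 of 54 higher and 6 lower (27.8% called). The fatty acid carriers Fabp3, Fabp4 and Fabp5 and the droplet protein Plin2 fell, Fabp4 from 6.39, 7.26 and 6.42 to 1.48, 0.981 and 0.791 TPM, and the desaturases Fads1, Fads2, Fads3 and Scd2 rose by 0.35 to 0.64. Lpcat2 was called higher at 0.67, but in no fit that left out a library. Among oxidation genes the lower count was 1 without male WT replicate 2 or 3 or male KO replicate 1 or 2. Among synthesis genes the higher count was 5 without male WT replicate 1 or 3 or male KO replicate 2 or 3.

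Antioxidant and Nrf2 target genes had 19 of 50 higher and 4 lower (median 0.14). Gpx7, an ER peroxidase, was at 11.7, 12.5 and 9.75 TPM in WT and 34.2, 34.9 and 32.7 TPM in KO, catalase, Cat, rose by 0.26 and peroxiredoxin 2, Prdx2, by 0.43. Nqo1, the usual marker of Nrf2 activity, fell from 25.7, 22.9 and 22.3 to 17.8, 17.6 and 15.1 TPM, and glutathione reductase, Gsr, by 0.45 on the log2 scale. Glutathione S-transferases and cytochrome P450 genes had 9 of 29 higher and 3 lower, with Cyp1a1, the aryl hydrocarbon receptor target, from 4.88, 4.37 and 4.53 to 0.472, 0.403 and 0.418 TPM. Among these detoxification genes the higher count was from 4 to 5 without male WT replicate 1 or male KO replicate 1 or 3. Metal genes had 8 of 34 higher and 2 lower. The metallothioneins Mt2 and Mt1 rose, Mt2 from 135, 130.3 and 134 to 269.7, 268 and 258 TPM, with the ferritin chains Fth1 (0.40) and Ftl1 (0.18), while the transferrin receptor Tfrc was at -0.38, a call lost without male WT replicate 1, 2 or 3 or male KO replicate 1 or 3 (log2 difference -0.42 to -0.31). Among metal genes the lower count was 1 without male WT replicate 1, 2 or 3 or male KO replicate 1 or 3.

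At the membrane, 27 of 150 other solute carriers were higher and 12 lower (26.0% called against 21.6% of all genes). The rises included the amino acid carriers Slc43a2 (1.11), Slc7a7 (1.0) and Slc1a4 (0.74), and Slc5a5, the iodide pump, fell from 5.84, 6.34 and 7.06 to 0.995, 0.98 and 0.739 TPM. Channels had 7 of 50 higher and 7 lower (28.0% called). Kcnab2, a potassium channel subunit, rose from 3.89, 5.43 and 2.9 to 20.8, 24.3 and 25.1 TPM, and Kcnk2 had 0.828, 0.703 and 3.63 TPM in KO against 5.02 TPM on average in WT, a call lost without male WT replicate 1, 2 or 3 or male KO replicate 1 or 2 (log2 difference -1.33 to -1.05). Among channels the higher count was from 2 to 4 without male WT replicate 1 or 3 or male KO replicate 1, 2 or 3 and the lower count from 1 to 4 without male WT replicate 1, 2 or 3 or male KO replicate 1 or 2. Zinc finger genes named Zfp, the largest list, had 11 of 319 higher and 7 lower, together 5.64% against 21.6% of all genes. Zfp783 rose (1.1 to 3.47 TPM) and Zfp97 fell (7.46 to 3.82 TPM), the latter call lost without male WT replicate 1 (log2 difference -0.70). Among Zfp genes the higher count was 6 without male WT replicate 3 and the lower count from 3 to 4 without male WT replicate 2 or 3 or male KO replicate 3. Clock genes had Nfil3 higher (29.5 to 53 TPM) and Nr1d1 lower (-0.30) of 16 (12.5% called, below the 21.6% of all genes). The call of Nr1d1 was lost on leaving out any 1 of the 6 libraries, and the higher count was 2 without male KO replicate 2.

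**Figure D4:**
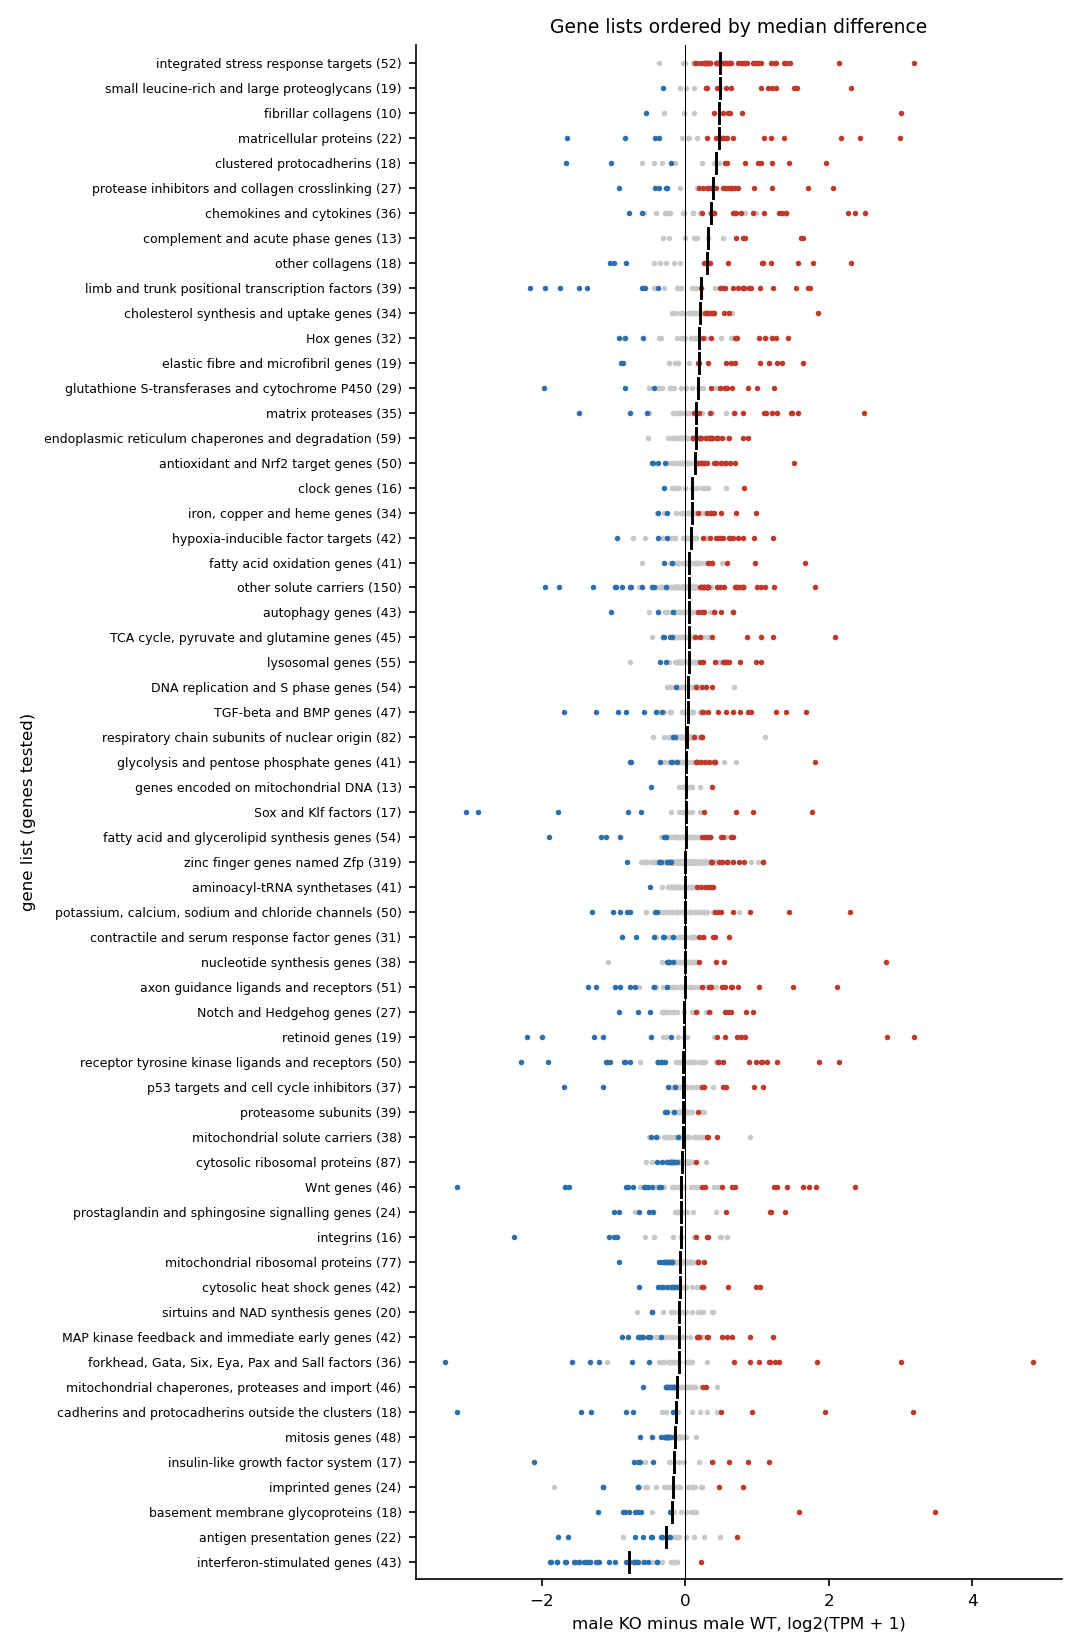
Each row is a gene list with its number of tested genes, ordered by the median male KO minus male WT difference in log2(TPM + 1) (x axis); points are genes, red if called higher, blue if called lower and grey if not called, and the black bar is the list median. Integrated stress response targets have the highest median at 0.49, next to proteoglycans, fibrillar collagens and matricellular proteins, and interferon-stimulated genes stand alone at the bottom at -0.79.

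The calls were spread over the genome and over expression levels. The share of genes called ran from 17.8% on the X chromosome to 27.2% on chromosome 6, leaving aside the Y chromosome, where none of 6 tested genes was called, and mitochondrial DNA. On chromosome 3, 62 genes were higher and 107 lower, with a median of -0.074. The share called rose with level, from 16.1% at 1 to 5 TPM to 33.3% above 100 TPM, where 243 genes were higher and 339 lower. Protein-coding genes were called in 22.3% of 11948 and processed pseudogenes in 6.44% of 388. Of 10 genes that differed by over 2 on the log2 scale without a call, 7 were processed pseudogenes, and the KO values of one, Gm10443, were 0, 3.31 and 110.1 TPM against 182, 326 and 251 TPM in WT.

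Markers of other cell types were checked in the same libraries. The defining epithelial cadherin Cdh1 was at 0.395 TPM or less in every male library. Summed over 16 epithelial markers the TPM was 83.3 to 83.9 in WT and 12.7 to 13.9 in KO, of which Krt19 made up most in WT. Krt18 fell from 8.48, 6.52 and 7.42 to 0.293, 0.203 and 0.591 TPM and Epcam from 1.94 to 0.356 TPM, while 9 of the 16 markers were under 1 TPM in all male libraries. The 8 mesothelial markers summed to 97.8 to 103 TPM in WT and 12.2 to 15 TPM in KO through Krt19 and Msln, although Wt1 rose from 1.46 to 4.83 TPM. These sums move with the fall of Msln and Krt19, and the part that cells of another type had in it was not tested. In bulk libraries fewer cells of a type and less RNA per cell cannot be told apart. The 12 macrophage and blood markers summed to 8.18 to 12.2 TPM in WT and 9.45 to 15.1 TPM in KO, ranges that overlap, with 4 at 0 in all male libraries. The 10 endothelial markers summed to 21.3 to 24.5 and 27.1 to 33.9 TPM. Erg, an endothelial and cartilage factor, from 3.35, 2.53 and 1.94 to 9.5, 11.2 and 11.4 TPM, was the only call. Of the 10 endothelial markers 7 were under 1 TPM in all male libraries. Cartilage and bone markers summed to 49.5 to 61.2 and 80.4 to 96 TPM, with Col2a1, Acan and Sox9 called higher. Runx2 (34.9 and 31.6 TPM) and Col11a2 (2.41 and 1.72 TPM) had lower means in KO with no call. Of these 13 markers 6 were under 1 TPM in all male libraries. Neural markers summed to 221 to 226 and 149 to 169.5 TPM, Sox2, Map2, Nes and Ncam1 falling and Tubb3 rising, a call lost without male WT replicate 1, 2 or 3 or male KO replicate 1 or 2. Pericyte markers summed to 1815 to 1852 and 1795 to 1856 TPM, with Cspg4 called higher (23.1 to 56.7 TPM) and Cnn1 lower (104 to 77.3 TPM), skeletal muscle markers to 10.3 to 12.5 and 9.63 to 14.4 TPM and adipocyte markers to 25 to 29.2 and 25.2 to 26.8 TPM. Of the skeletal muscle markers Tnnt3, called at 1.53, lost its call without male WT replicate 1, 2 or 3 or male KO replicate 1 or 2 (log2 difference 1.07 to 1.59). The 14 fibroblast markers summed to 10300 to 11310 TPM in WT and 12350 to 13030 TPM in KO.

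The genotype difference was then set beside that of the female MEFs, which shared no library with the male comparison. The difference between the male and the female genotype effect passed an interaction test over 12 libraries in 1629 genes, 13.0% of those tested, and in 339 of the 498 genes called at 2-fold or more in males. Of the 12504 tested genes 1434 were called in females, and 21.6% were called in males. Among the 2707 male calls, 730 (27.0%) were also called in females, 593 in the same and 137 in the opposite direction. These 730 were 50.9% of the female calls. For 150 of the 498 genes the male WT mean lay within the range of the 6 female libraries and the male KO mean outside it, for 109 the male KO mean lay within and the male WT mean outside, for 34 both lay within and for 205 neither did. Pax8 is of the first kind, with female means of 0.36 TPM in WT and 0.143 TPM in KO. Usp18 shows a difference in both pairs, -1.88 in males and -0.82 in females, where it went from 23.6 to 12.9 TPM. Slc5a5 fell alike, by 1.96 and 2.13 on the log2 scale, and the difference between the pairs was 0.17 (adjusted p = 0.62). Sox2 went in opposite directions, at 1.19 in females, as did Eng (1.69 and -1.03) and Mt2 (0.99 and -0.56). For integrated stress response targets the list median relative to male WT was 0.22, 0.26 and 0.21 in female WT and 0.15, 0.089 and 0.12 in female KO libraries, between the male WT and the male KO libraries. For interferon-stimulated genes it was -0.70, -0.53 and -0.64 in female WT and -0.93, -1.01 and -0.61 in female KO libraries, so that male WT was the group with the highest level.

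**Figure D5:**
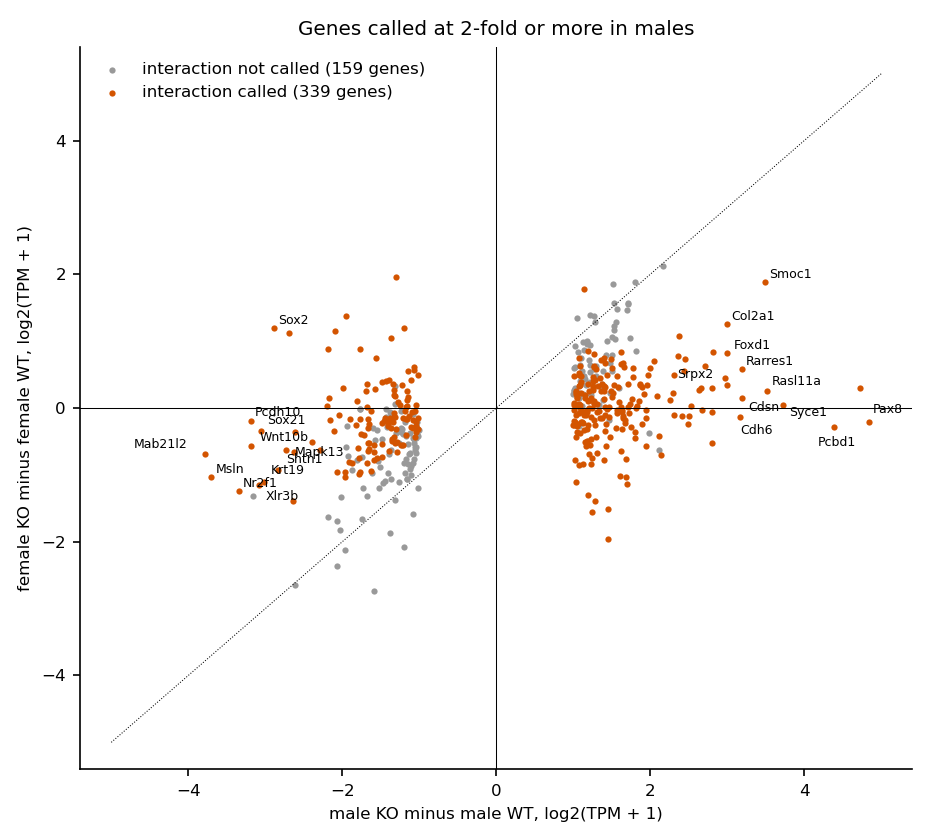
Each point is 1 of the 498 genes called at 2-fold or more in males, by its male difference (x axis) and its female difference (y axis), both KO minus WT in log2(TPM + 1); orange genes also passed the interaction test and the dotted line marks equal differences. Genes were chosen for a large male difference and orange ones for a difference between the sexes, so that their smaller female differences follow from the choice; Pax8, Pcbd1 and Syce1 have female differences between -0.28 and 0.042.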

How the data were processed

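Polyadenylated RNA of 12 MEF cultures was sequenced as paired ends. The authors quantified transcripts with Salmon (version 1.10.1 in the submitters' processing notes) against GRCm38 and deposited 1 table of TPM for 34866 genes. TPM hold no read counts, so the depth reached in each library is unknown from them and no counting error is given. No column was left out (0 unused). GENCODE for GRCm38 supplied symbols and coordinates and matched 99.39% of the identifiers.

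From these values log2(TPM + 1) was computed for the 12504 genes averaging 1 TPM or more. Male KO was compared with male WT in the 6 male libraries by limma 3.58.1 (R 4.3.3) with a mean-variance trend, at a Benjamini-Hochberg adjusted p under 0.05. The interaction with sex was fitted over all 12 libraries. "Rose" and "fell" are used of called genes only. A difference is KO minus WT on the log2(TPM + 1) scale, which understates changes of low genes.

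Genes were named by rule: Sirt3, the 12 largest rises and falls without overlap, and the largest called member of each of 71 lists, with its opposite in lists of 30 or more. Some genes that these rules select are not reported here. Other genes were picked as examples after their values were seen. The lists, and the choice of this comparison, were made with earlier results of these data known. Promoters were RefSeq sequences of GRCm38.p6. The examples printed for each motif were chosen among promoters outside chromosome 18. The limma step was tested on simulated data. Each male library was left out in turn, and other settings were tried for the pseudocount (0.1), the filter (none, or 5 TPM), the scaling (by quantiles, or by the median of ratios), the trend (none), a replicate block and the libraries entering the fit (all 12).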

Additional observations from a re-analysis of the deposited data

Results flagged for a closer look

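Of the 112 named genes, 80 differed in their genotype effect between the male and the female MEFs. The test was the limma interaction over 12 libraries (adjusted p under 0.05), which 13.0% of all tested genes passed. Most named genes were chosen for a large male difference, and the same male libraries entered the interaction test. A high share among them therefore follows in part from the choice. The value given for each of the 80 is its male KO minus WT difference minus its female one, on the log2(TPM + 1) scale. A positive value means that KO was higher relative to WT in the males than in the females. No sample was tested for standing apart within its group, since each group had 3 libraries. The number of lines per group was not given, so sex and line cannot be told apart here.

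The largest positive differences were 5.04 for Pax8, 4.67 for Pcbd1, 3.68 for Syce1, 3.32 for Ampd3, 3.31 for Cdh6, 3.27 for Rasl11a, 3.05 for Cdsn, 2.84 for Fgf21, 2.72 for Eng, 2.72 for Mmp2 and 2.65 for Srpx2. Smaller positive differences were found with 2.62 for Ccl20, 2.61 for Rarres1, 2.53 for Robo2, 2.42 for Col15a1, 2.25 for Slc16a3, 2.17 for Foxd1, 2.06 for Kcnab2, 1.92 for Ldhb, 1.85 for Acot2, 1.81 for Fmod and 1.76 for C4b. Positive differences at the lower end were 1.74 for Col2a1, 1.7 for Erg, 1.6 for Smoc1, 1.59 for Dkk3, 1.54 for Mt2, 1.47 for Pcdhga7, 1.45 for Hoxa4, 1.41 for Ctsh, 1.36 for Timp3, 1.34 for Gpx7, 1.14 for Hspb1 and 1.14 for Plpp3. The smallest positive differences were 1.1 for Dusp1, 1.1 for Zfp783, 0.98 for Cspg4, 0.97 for Emilin1, 0.84 for Nfil3, 0.65 for Amotl2, 0.58 for Slc25a39, 0.56 for Dut, 0.50 for Gars, 0.49 for Lonp1, 0.47 for Herpud1 and 0.45 for Gas1.

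The largest negative differences were -4.08 for Sox2, -3.1 for Mab21l2, -3.0 for Pcdh10, -2.72 for Sox21, -2.66 for Msln, -2.62 for Wnt10b, -2.1 for Nr2f1, -2.1 for Mapk13 and -1.98 for Pitx1. Next in size among negative differences came -1.96 for Bmp2, -1.92 for Xlr3b, -1.91 for Shtn1, -1.91 for Krt19, -1.89 for Itga2, -1.75 for Igfbp3, -1.74 for Fabp4, -1.66 for Fgf5 and -1.25 for Mmp9. Negative differences of lesser size were -1.18 for Zdbf2, -1.06 for Usp18, -0.97 for Acta1, -0.96 for Mrpl23, -0.94 for Hoxd13, -0.93 for Cyp1a1, -0.91 for Etv4, -0.90 for Unc5c and -0.86 for Perp. The smallest negative differences were -0.83 for Epg5, -0.81 for H2-Q6, -0.77 for Pam16, -0.68 for Hspa1b, -0.56 for Ect2, -0.40 for Ctsc and -0.34 for Adss.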

How the results depend on the processing

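TPM values carry no read counts, so what the depth of each library limits could not be assessed. The 2707 calls became 2667 with a pseudocount of 0.1, 2335 without a filter, 2401 at a mean of at least 5 TPM, 2684 with median-of-ratios scaling (1456 higher and 1228 lower), 2793 with quantile normalization, 2316 without the trend and 3306 with all 12 libraries in one fit. Leaving out 1 male library gave 1813 to 2318 calls. The count of lower genes then ran from 860 to 1260, against 1364 with all 6 libraries, where fewer samples were fitted. Genes called at 2-fold or more numbered 290 at a mean of at least 5 TPM, where fewer genes were tested, against 498, and 631 with a pseudocount of 0.1. Interaction calls ran from 1375 to 1695. No named gene changed sign. Of 112 named genes 78 could be run in every alternative, and 62 of these stayed on the same side of the threshold. The other 34 averaged under 5 TPM and were not run at that filter, and 31 of them stayed on the same side elsewhere. Of 66 list medians 49 moved by less than the spread between replicates and 16 changed sign in some alternative. These were 0.054 or less in size, except that of clustered protocadherins (0.43), which was -0.32 at a mean of at least 5 TPM, where fewer genes were tested. Of 132 list counts 66 stayed within 1.5 times their value.

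Same-numbered male KO and WT libraries did not deviate together: the correlation over genes of their deviations from the group means was -0.0172 for number 1, 0.0035 for number 2 and -0.0135 for number 3. The samples share only a number. With the replicate number as a block 2366 genes were called (1198 higher and 1168 lower) and 492 at 2-fold or more.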

Other observations

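Further genes differed by at least 2-fold between male KO and male WT MEFs without belonging to a list or rule above, and those given here were chosen after their values were seen. Aqp1, a water channel, was at 52.7, 57.6 and 56.4 TPM in WT and 11.6, 12.3 and 12.6 TPM in KO, and P2rx7, an ATP-gated channel, at 19.9, 24.6 and 24.1 and 2.35, 2.43 and 4.12 TPM. Homer2, a scaffold protein, was at 7.62, 8.01 and 9.25 and 0.316, 0.648 and 0.54 TPM. Among the rises, Sned1, a matrix protein, was at 4.1, 8.85 and 7.01 TPM in WT and 40.5, 54.2 and 48.4 TPM in KO, Megf6 at 2.79, 1.73 and 2.78 and 20.4, 23.8 and 23.9 TPM, and the chemokine Ppbp at 9.62, 10.6 and 9.42 and 58.7, 68.3 and 58.8 TPM. All these groups were without overlap.

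Several abundant mRNAs were among the calls. Hmga2 and Hmga1, chromatin proteins of fetal and dividing cells, fell from 228 to 117 TPM and from 396 to 215 TPM. Cavin2, a caveolar coat protein, fell from 239 to 68.4 TPM, and Fhl1, a LIM protein of muscle, from 234 to 91.3 TPM. Spp1, the secreted protein osteopontin, rose from 149 to 387 TPM, Igfbp7 from 198 to 455 TPM and Crip1, a small LIM protein, from 119 to 289 TPM.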
